A study of Sus scrofa with 30 samples.

Results

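The epithelial miR-200 family was followed in minipig plasma before and after total body irradiation (TBI). Its members were taken as the ssc-miRNAs named miR-141, miR-200 or miR-429, with any letter or arm after the number, and 1 of the 411 ssc-miRNAs in the table, ssc-miR-429, met this rule. ssc-miR-200b and ssc-miR-200c were not analysed here, so the values below describe 1 member and not the family as a whole. Small RNA of plasma was sequenced from 3 male Göttingen minipigs, about 4 months old at exposure, with 1 library per animal and time point. All 3 animals received 2.2 Gy, a dose lethal to most animals, and each served as its own control, since no animals without TBI were included. The pre-TBI baseline pooled C7, drawn 7 days before exposure, with C1 from the day before it. The later time points were 0d (6 h after TBI), 1d, 3d and 7d, which form the Early phase, 10d and 14d (Mid), 17d (Late) and 20d (LR). These phases were taken by the study from a principal component analysis of the same libraries. The animals were also given dextrose and, when neutrophils were low, antibiotics, so the later time points differ from the baseline in more than the radiation. For irradiation they were anaesthetized with isoflurane and injected Telazol and xylazine, while for blood draws the study's methods name isoflurane. The 0d libraries therefore also followed these injections.

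The miR-200 family is made from a pair of gene clusters, 1 of which holds miR-200b, miR-200a and miR-429 and the other miR-200c and miR-141. miR-429, miR-200b and miR-200c share a seed, the bases that pair with target mRNAs, and miR-200a and miR-141 share another that differs from it by a single base. The family is abundant in epithelial cells and scarce in mesenchymal and blood cells. It is known for repressing ZEB1 and ZEB2, transcription factors that switch off E-cadherin and drive the epithelial to mesenchymal transition, and these factors in turn repress the clusters. In the RefSeq annotation of the pig genome (Sscrofa11.1), MIR429 (gene ID 100628340) lies between LOC110261078 and TTLL10, both protein coding. The counts were made on another build, so no coordinates are given.

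Totals ranged from 24341 to 550316 counts in the 24 libraries used (median 240612). The libraries of minipig 3 from 3d to 20d, 6 in all, held at most 17 counts each and were left out, so every value from 3d on rests on minipigs 1 and 2. ssc-miR-429 collected 3511 counts over the 24 libraries, with a median of 135 counts per library, and ranked near the middle of the 411 ssc-miRNAs. In 4 libraries it had fewer than 20 counts. Before TBI it had 11 and 111 counts at C7 in minipigs 1 and 2, and 119, 138 and 274 counts at C1 in minipigs 1, 2 and 3. The low count in minipig 1 at C7 came from the smallest library, where its share of all counts was 0.0452% (Wilson 95% interval 0.0252 to 0.0809), within the range of the other libraries. Its share had a median of 0.0539% over the 24 libraries, and 22 of them lay between 0.0421% and 0.0952%. The remaining 2 were both from minipig 2, with 0.00839% at 10d and 0.0236% at 17d. Such intervals reflect counting alone, because copies made by PCR cannot be told from separate molecules.

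In no phase did ssc-miR-429 in plasma differ from its pre-TBI level past the threshold of the test, and its lowest values were in minipig 2. Levels are given as log2 CPM, the log2 of counts brought to a common library total after TMM scaling. Before TBI the level in minipigs 1, 2 and 3 was 9.10, 8.93 and 8.54 at C7 and 9.97, 8.92 and 9.18 at C1. With library size only minipig 1 was lowest at C7 with 8.85, below 8.96 in minipig 2, and minipig 3 was highest, so the order of the animals there depended on the scaling. With TMM, C1 was above C7 by 0.87 in minipig 1 and 0.64 in minipig 3, while the difference in minipig 2 was -0.0038. Before TBI the mean was 9.11 ± 0.48 (SD, n = 6). The Early libraries averaged 9.25 ± 0.53 (SD, n = 10) and those of Mid 8.59 ± 1.56 (SD, n = 4). The mean of the Late pair was 8.61 ± 0.96 and that of the LR pair 9.12 ± 0.90 (SD, n = 2 each). The ranges of the phases overlapped with the pre-TBI range in all 4 cases. In plasma, fewer releasing cells and less release per cell cannot be told apart.

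**Figure D1:**
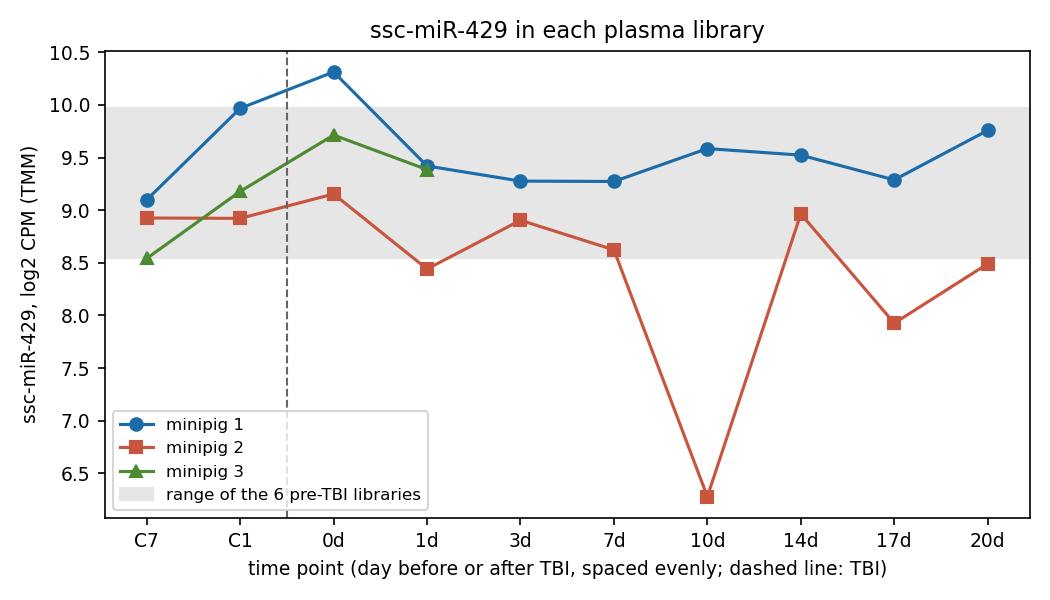
Level of ssc-miR-429 (log2 CPM after TMM scaling, vertical axis) in each plasma library at the 10 time points (horizontal axis, spaced evenly), with 1 line per minipig, a dashed line for TBI and a grey band for the range of the 6 pre-TBI libraries, 8.54 to 9.97. The points lie in or near the band except minipig 2 at 10d (6.28) and at 17d (7.93), and minipig 3 has no point after 1d.

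At 0d, 6 h after TBI, the level was 10.31, 9.15 and 9.71 in minipigs 1, 2 and 3, above both pre-TBI libraries of the same animal in 3 of 3 minipigs. The rise over the animal's own pre-TBI mean was 0.78, 0.23 and 0.85. The same placing was found when libraries were scaled by their size only. It was not rare in the table, since 21.7% of the 411 ssc-miRNAs lay above both own pre-TBI libraries in all 3 minipigs with TMM scaling, and 8.76% with library size only. In a fit with every later time point as its own group, the log2 fold change at 0d was 0.63 (SE 0.48, 95% interval -0.38 to 1.65) with an unadjusted p of 0.206 and an adjusted p of 0.525 by edgeR's quasi-likelihood test, so it did not pass the threshold. As background to it, 8.52% of the table (35 ssc-miRNAs) reached 0.05 without adjustment and 0% with it. This time point was singled out after its values were seen. By 1d the levels were 9.42, 8.44 and 9.39, and minipigs 1 and 3 were still above minipig 2.

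From 3d on the course differed between the 2 remaining animals. In minipig 1 the level at 3d and 7d was 9.28 and 9.27, followed by 9.59 and 9.52 at the Mid time points, 9.29 at 17d and 9.76 at 20d. All of these lay between its own pre-TBI libraries, and no change from its pre-TBI mean after 0d fell outside -0.26 to 0.23. In minipig 2 the level at 3d and 7d was 8.90 and 8.62. It was 6.28 at 10d and 8.96 at 14d, then 7.93 at 17d and 8.49 at 20d. Its largest departures from its pre-TBI mean were -2.64 at 10d and -1.00 at 17d, with a level close to the mean at 14d in between. The 10d library of minipig 2 held 3 counts of ssc-miR-429, where its own pre-TBI share would have given 18.3, and the exact Poisson 95% interval of 3 counts is 0.619 to 8.77. Its 17d library held 15 counts (8.40 to 24.7) against 32.5 at the pre-TBI share. Both shortfalls are larger than counting error, but they were singled out as the lowest of the 24 libraries. Libraries here also vary well beyond counting error in general. The fit put this extra variation, as a coefficient of variation common to all ssc-miRNAs, at 0.50. Lying outside the Poisson interval therefore does not set these shortfalls apart from ordinary variation between libraries. Each is a single library with no replicate. The 10d library of minipig 2 was also the lowest of all libraries for 23 ssc-miRNAs and the highest for 41, and its part in the value of ssc-miR-429 was not tested. Over all 18 libraries after TBI, 5 were above, 7 within and 6 below the range of the same animal's pre-TBI libraries. All 6 below it were from minipig 2, whose pre-TBI libraries were almost equal and so gave a narrow range. The range of minipig 1 was wider, from 9.10 at C7, a library with 11 counts of ssc-miR-429, to 9.97 at C1. Lying within or outside these ranges thus depended in part on their width.

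Minipig 1 had more ssc-miR-429 than minipig 2 at 10 of 10 time points, with a mean difference in log2 CPM of 1.09 ± 0.87 (SD) and a range of 0.17 to 3.31. Without 10d the difference was 0.84 ± 0.42. With library size only it held at 9 of 10 time points, the exception being C7 with -0.11. Of the 411 ssc-miRNAs, 8 (1.95%) were higher in minipig 1 at every time point and 5 were lower. The spread of ssc-miR-429 over the 24 libraries, an SD of 0.79, was close to the median of 0.68 over all ssc-miRNAs, and without the 10d library of minipig 2 it was 0.54, when 27.0% of the ssc-miRNAs had a smaller one.

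Ordered by the mean of minipigs 1 and 2 (n = 2 each), 0d was highest with 9.73 ± 0.82 (SD), followed by C1 with 9.44 ± 0.74 and 14d with 9.24 ± 0.39. Next came 20d with 9.12 ± 0.90, 3d with 9.09 ± 0.26, C7 with 9.01 ± 0.12, 7d with 8.95 ± 0.46 and 1d with 8.93 ± 0.69. The lowest were 17d with 8.61 ± 0.96 and 10d with 7.93 ± 2.34. The values of every pair of neighbours in this order overlapped, so the order is not resolved at this number of animals.

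Each phase was then set against pre-TBI for ssc-miR-429 with edgeR's quasi-likelihood test, with Benjamini-Hochberg adjustment across the 411 ssc-miRNAs. At Early the log2 fold change was 0.17 (SE 0.36, adjusted p = 0.788) and at Mid it was -0.14 (SE 0.46, adjusted p = 0.978). At Late it was -0.50 (SE 0.63, adjusted p = 0.649) and at LR 0.08 (SE 0.55, adjusted p = 0.960). LR differed from Late by 0.58 (SE 0.73, adjusted p = 0.577). None of the 5 comparisons reached an unadjusted p of 0.05 either, the smallest p being 0.433. In the same comparisons the share of all ssc-miRNAs with an unadjusted p under 0.05 was 18.7% for Early, 5.35% for Mid, 22.6% for Late, 5.6% for LR and 32.1% for LR against Late. With adjusted p-values it was 0% at Early, Mid and LR in edgeR, 4.38% at Late and 0.73% for LR against Late. The 0% stands beside 77, 22 and 23 ssc-miRNAs with an unadjusted p under 0.05 in those phases, and DESeq2 called 33, 0 and 0. The tests leave room for sizeable changes in ssc-miR-429. As fold changes, the 95% interval was 0.674 to 1.88 for Early and 0.472 to 1.74 for Mid. It was 0.286 to 1.75 for Late, 0.480 to 2.34 for LR and 0.526 to 4.28 for LR against Late. A 2-fold decrease at Mid, Late or LR is therefore within the interval of this fit, and at Early it lies outside, below the lower end of 0.674. The fit has no term for the animal and counts repeated libraries of an animal as independent. With the minipig as a block in the fit, the log2 fold change at Early was 0.13 with a smaller SE of 0.27. With C1 only as the baseline, the log2 fold change at Early was -0.080 with a larger SE of 0.46. A 2-fold decrease at Early is therefore not excluded under every setting.

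The fold change at Late was negative and that of LR against Late positive under all 18 alternative settings of the fit, from -1.04 to -0.28 and from 0.46 to 0.88, and none of them brought p under 0.05. The settings with a stricter filter or none could not differ from the main fit, because all 411 ssc-miRNAs passed every filter. At Late every setting also used the same pair of 17d libraries or 1 of them, which held 13 and 15 counts of ssc-miR-429. The setting with libraries of at least 1 count added only the 17d library of minipig 3. That library held 17 counts in all and 0 of ssc-miR-429. The number of settings is therefore no measure of support for the sign. The sign at Early, Mid and LR changed with the setting. At Mid the direction rested on the 10d library of minipig 2, without which the log2 fold change was 0.22. Exact two-sided permutation tests, with time points exchanged only inside an animal, gave p = 0.419 for Early and 0.667 for Mid. The p was 0.444 for Late, 0.889 for LR and 0.5 for LR against Late. With 9 arrangements, the test at Late or LR cannot go below 0.111, and with 4 that of LR against Late cannot go below 0.5.

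For single time points against pre-TBI, the fold changes of ssc-miR-429 after 0d lay between -0.50 at 17d and 0.10 at 14d, and the lowest unadjusted p of the 8 was that of 0d. At 10d, where minipig 2 was lowest, the log2 fold change was -0.46 with an edgeR interval that included 0. The background share of ssc-miRNAs with an unadjusted p under 0.05 was 12.2% at 1d, while 3d and 7d had 8.52% and 8.27%. It was 7.3% and 9% for 10d and 14d, and 23.8% and 7.06% for 17d and 20d.

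**Figure D2:**
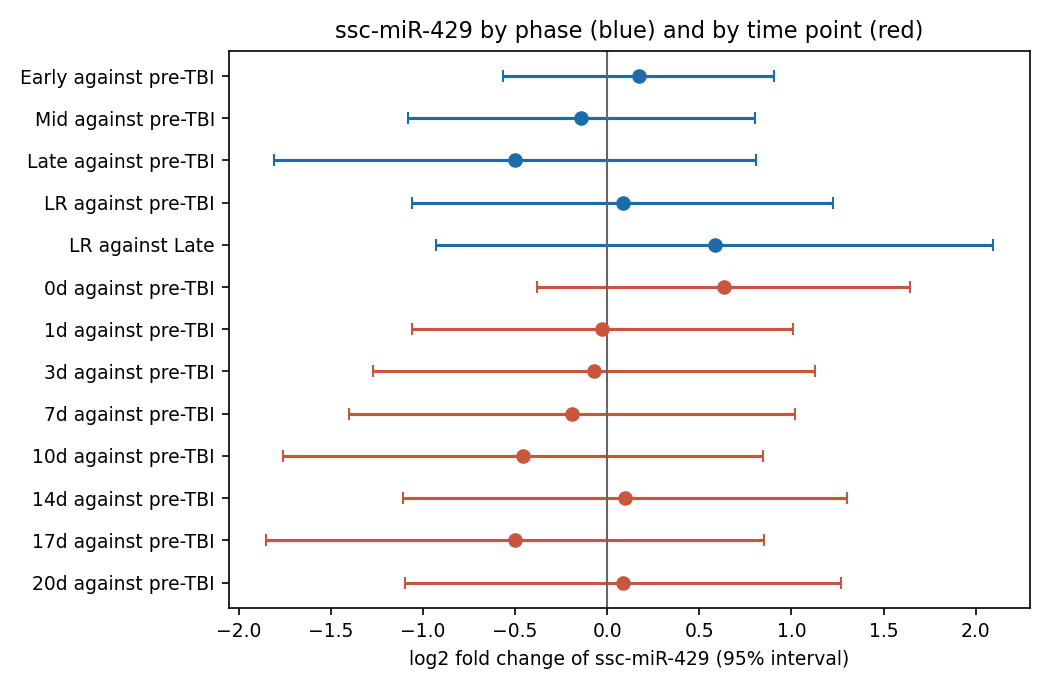
Log2 fold change of ssc-miR-429 (horizontal axis) with its 95% interval for each phase (blue) and each single time point (red) against pre-TBI, and for LR against Late. All 13 intervals cross 0, and the widest belong to the groups with 2 libraries.

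Other ssc-miRNAs known to be enriched in epithelium were read beside ssc-miR-429, from a list of 10 numbers of which 8 were found, in 10 ssc-miRNAs. miR-203 and miR-375 were not analysed here. No member passed an adjusted p of 0.05 at Early, Mid or LR. Their median log2 fold change was -0.22 for Early, 0.19 for Mid, 0.23 for Late and 0.25 for LR, beside 0.02, 0.05, 0.08 and -0.01 over all ssc-miRNAs. At Late 2 of the 10 members rose and none fell at an adjusted p under 0.05, beside 18 of all 411 ssc-miRNAs (4.38%), 16 higher and 2 lower. These were ssc-miR-182 and ssc-miR-96-5p, which come from a shared cluster with miR-183 and are known from sensory epithelia. ssc-miR-182 rose by 5.44 on the log2 scale (adjusted p = 0.00102 by the edgeR fit) and ssc-miR-96-5p by 1.97 (adjusted p = 0.00125).

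Both rises were larger in minipig 2, and both calls rested on it. At 17d ssc-miR-182 had 11235 counts in minipig 2, a log2 CPM of 17.43 against 10.95 before TBI. In minipig 1 it had 50 counts, 11.22 against 10.04. Without minipig 2 the log2 fold change of ssc-miR-182 was -0.075, and that of ssc-miR-96-5p was 0.94 with an adjusted p of 0.315. At 17d ssc-miR-96-5p had 60 counts in minipig 2, a log2 CPM of 9.89 against 7.52 before TBI. In minipig 1 it had 9 counts, 8.77 against 8.13. The same 17d library of minipig 2 was among its lowest for ssc-miR-429, so in that library these epithelial miRNAs lay on opposite sides of the baseline. The third member of the cluster, ssc-miR-183, had a log2 fold change of 1.55 at Late (adjusted p = 0.458). At 17d its log2 CPM was 16.55 against 14.63 before TBI in minipig 1, and 13.60 against 14.24 in minipig 2, so in minipig 2 it was lower where ssc-miR-182 and ssc-miR-96-5p were higher. ssc-miR-205, a miRNA of stratified epithelium that also targets ZEB1 and ZEB2, had -1.55 at Late (adjusted p = 0.176). ssc-miR-192 and ssc-miR-215, which share a seed and are abundant in gut and kidney epithelium, had -0.87 and -0.09 at Late and 1.48 and 1.41 at LR, with adjusted p-values of 0.298, 0.953, 0.337 and 0.337. On the same list, ssc-miR-194b-3p, ssc-miR-194a and ssc-miR-194b-5p had 0.41, 0.998 and 0.03 at Late and -0.10, 0.20 and 0.30 at LR. The LR values of ssc-miR-192 and ssc-miR-215 were thus not shared by the ssc-miR-194 members.

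The mesenchyme-enriched list, miR-143, miR-145, miR-199 and miR-214, was found in full, as 9 ssc-miRNAs, and none passed an adjusted p of 0.05 in any of the 5 comparisons. With at most 4.38% of all ssc-miRNAs called in a comparison, 0 of 9 is no result about this list. Its medians were 0.18 for Early, 0.21 for Mid, -0.02 for Late and 0.23 for LR. ssc-miR-143-3p, from a smooth muscle cluster, had a log2 fold change of 0.93 at Late (adjusted p = 0.192) and 1.21 at LR (adjusted p = 0.403). ssc-miR-145-5p of the same cluster had 0.54 at Late and -0.03 at LR (adjusted p = 0.357 and 0.966). ssc-miR-199a-5p, a fibroblast miRNA, had -0.80 and 0.16 (adjusted p = 0.404 and 0.904). The fold changes of ssc-miR-429 lay within the range of this list, and also within that of the epithelium-enriched list, at Early, Mid, Late and LR.

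**Figure D3:**
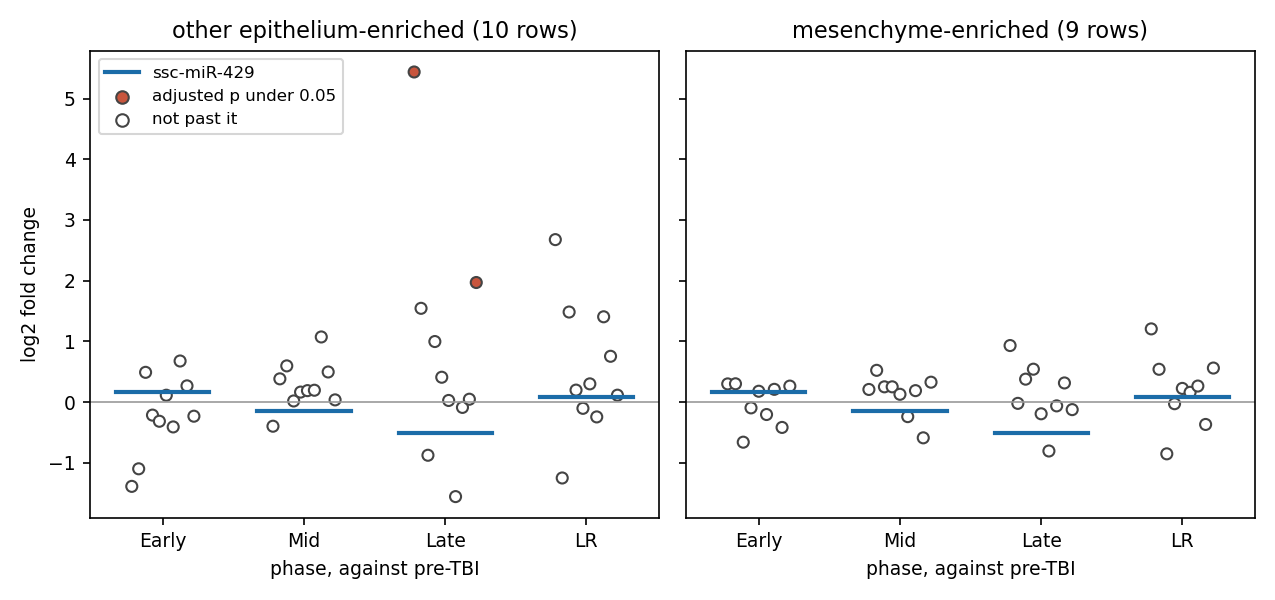
Log2 fold change against pre-TBI (vertical axis) at each phase for the 10 other epithelium-enriched (left) and the 9 mesenchyme-enriched ssc-miRNAs (right), 1 circle each, with a blue bar for ssc-miR-429. Filled circles passed an adjusted p of 0.05, which only ssc-miR-182 (5.44) and ssc-miR-96-5p (1.97) did, both at Late.

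Plasma can also hold miRNAs of blood cells and organs. The erythroid markers ssc-miR-451, ssc-miR-486 and ssc-miR-144, which rise with lysis of red cells, had a median log2 fold change of 0.01 for Early, -1.50 for Mid, -1.65 for Late and -0.92 for LR, and none passed an adjusted p of 0.05. The marker lists of lymphocytes, myeloid cells, platelets and endothelium, hepatocytes, and muscle and heart had no call in any phase either, where the share called over all ssc-miRNAs was 4.38% at Late and 0% in the other phases, so this says nothing particular of these markers. miR-223, the other listed myeloid marker beside miR-142, was not analysed here. The markers that were analysed had at least 1 count in every library used. Their part in the values of ssc-miR-429 was not tested.

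The ssc-miRNAs with the pattern most like that of ssc-miR-429 over the 24 libraries, by Pearson's r of log2 CPM, were ssc-miR-9786-3p (r = 0.76), ssc-miR-671-3p (r = 0.73), ssc-miR-320 (r = 0.67), ssc-miR-133a-3p (r = 0.67) and ssc-miR-1839-3p (r = 0.66). Without the 10d library of minipig 2 the values were 0.83, 0.77, 0.68, 0.63 and 0.53. By these values they ranked 1, 4, 7, 10 and 20, so the place of the last 3 among the closest 5 rested on that library. ssc-miR-133a-3p is known from muscle. The libraries share animals, depth and scaling factors, so these correlations are a description of the libraries.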

How the data were processed

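The authors deposited raw counts per ssc-miRNA and library, whole numbers without normalization, for 411 ssc-miRNAs in 30 plasma libraries. According to the study's methods, the trimmed reads were mapped on the ssc5 build and assigned to the known ssc-miRNAs of miRBase. How reads matching several family members were assigned is not given in the sources used here, and such reads could move counts between members. The submitters' processing notes name bcl2fastq, Cutadapt and Bowtie2 (2.2.3.0).

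Libraries under 1000 counts were left out, which removed 6 of minipig 3. The 24 others (6 pre-TBI, 10 Early, 4 Mid, 2 Late and 2 LR) entered 1 fit with edgeR 4.0.16 in R 4.3.3 (TMM, CPM above 0.5 in at least 3 libraries, glmQLFit and glmQLFTest, Benjamini-Hochberg adjustment), without a term for the animal. All 411 ssc-miRNAs passed the filter. Levels are log2 CPM with a prior count of 2 and fold changes have a prior count of 0.125. DESeq2 1.42.0 was an alternative. The fit was run on simulated counts with log2 changes of 3 at Early only and no animal effect. That run does not bear on smaller changes, on repeated animals or on the phases with 2 libraries. Permutation tests and levels used Python 3.11.15 with scipy 1.17.1, pandas 2.3.3 and numpy 2.4.6. Plots were made in matplotlib 3.10.9.

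The miRNAs named are the member, the 5 with the largest r with it, and from each list those with an adjusted p under 0.05, with the most counted ssc-miRNA of the first 3 numbers where fewer passed. ssc-miR-183, ssc-miR-192, ssc-miR-215, the ssc-miR-194 members and the erythroid markers were added after their values were seen. The member and the lists were chosen with earlier results of these data known. A ratio between members could not be formed with 1 member, and mature sequences were not used here. Libraries with the same number come from the same minipig, so the numbers pair them. After removal of the phase means, the mean correlation was 0.159 over 96 pairs from the same animal and -0.148 over 180 other pairs. Removing these means itself lowers the correlation of pairs within a phase. At Late and at LR it makes the pair of libraries, from different animals, exact opposites. Part of the difference was thus set by the calculation. No libraries of a phase were duplicates.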

Additional observations from a re-analysis of the deposited data

How the results depend on the processing

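In ssc-miR-429 no setting brought p under 0.05 in any phase. Its log2 fold change kept its sign at Late, in LR against Late and at 0d (0.32 to 0.78), and changed sign in the rest as follows. At Early it was -0.041 with thinned counts, -0.036 with these and the replicate block, -0.080 with C1 only as the baseline, and -0.056 to 0.28 when each minipig was left out in turn. At Mid it was 0.18 with C7 only, 0.22 without the 10d library of minipig 2, and -0.68 to 0.31 with each minipig left out. At LR it was -0.059 without the most abundant ssc-miRNA, -0.10 with thinned counts, -0.17 with C1 only, -0.015 without the 10d library of minipig 2, -0.084 without the C7 library of minipig 1, -0.10 in the permutation test, and -0.40 to 0.32 with each minipig left out. With the replicate block, which uses the pairing of libraries by animal, it was -0.031 at LR and -0.28 with thinned counts. The log2 fold change of ssc-miR-182 at Late ranged from -0.075 to 6.18 with each minipig left out, and DESeq2 gave no p for it. ssc-miR-182 and ssc-miR-96-5p lost their calls without minipig 2, with only the 2 groups in the fit and with C7 only, and ssc-miR-96-5p also with thinned counts.

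The number of all 411 ssc-miRNAs with an adjusted p under 0.05 depended on the setting. At Early (0) it was 12 with DESeq2's size factors, 13 with library size only, 15 without the most abundant ssc-miRNA, 33 with DESeq2, 38 with only the 2 groups, 29 with libraries of at least 1 count, 32 without the 10d library of minipig 2, 27 without the C7 library of minipig 1, and 0 to 8 with each minipig left out. At Late (18) it was 10 with library size only, 9 with thinned counts, with or without the replicate block, 0 with only the 2 groups or with C7 only, 11 with libraries of at least 1 count, 36 without the C7 library of minipig 1, and 9 to 77 with each minipig left out. At LR (0) it was 0 to 6 with each minipig left out. In LR against Late (3) it was 64 with DESeq2, 23 with the replicate block, 0 with library size only, with thinned counts with or without the block, with only the 2 groups or with C7 only, 1 with libraries of at least 1 count, and 0 to 66 with each minipig left out. The number with an unadjusted p under 0.05 ranged over the settings from 35 to 112 at Early, 11 to 38 at Mid, 38 to 132 at Late and 13 to 65 at LR, and in LR against Late it was 39 or more. The causes were not tested. Library size only moved the median of all ssc-miRNAs at Late from 0.08 to -0.21, and relative to it ssc-miR-429 was at -0.58 with TMM and -0.60 with library size only. From 3d on there are 2 animals, and 4 libraries hold fewer than 20 counts of ssc-miR-429, which limits the precision of its fold changes.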

Other observations

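ssc-miR-30a-5p (r = -0.75) and ssc-miR-7138-5p (r = -0.73) had the patterns most opposite to that of ssc-miR-429 over the 24 libraries, and without the 10d library of minipig 2 the values were -0.75 and -0.69. The 6 libraries of minipig 3 that were left out held 0 counts of ssc-miR-429, which at totals of at most 17 counts says nothing of its level.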
